A study of Mus musculus with 8 samples.

Results

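Amphiregulin, the other ligands of the epidermal growth factor (EGF) receptor, the receptors themselves and their cell-intrinsic inhibitors were examined in mouse calvarial osteoblasts treated with parathyroid hormone (PTH). The members were taken from the count table by gene symbol, for their place in the pathway and with earlier results of these data known. They are the ligand genes Areg, Ereg, Hbegf, Btc and Tgfa, the receptor genes Egfr, Erbb2 and Erbb3, and the inhibitor genes Errfi1 and Lrig1, which makes 10 of the 47706 entries of the count table. Each of the 10 symbols was found, and all 10 genes passed the filter on low counts that left 16736 genes for testing. Areg, at no more than 2 counts in any vehicle sample, passed through its PTH samples alone. Poly(A) RNA was sequenced from 4 vehicle samples and 4 PTH samples, taken on day 7 of differentiation after 24 hours of treatment that followed serum starvation. The cells were primary cultures released by collagenase from the skulls of newborn mice, and the PTH was the amino-terminal fragment of the hormone. The sample titles carry the prefix Con in both treatments without a definition, and no strain, genotype or dose is given in the sample labels. The labels name an adipogenic differentiation, whereas the study's methods describe an osteogenic medium. Nothing in the labels says whether the replicates of a treatment were separate cultures, so p-values measure the spread between these samples, which may be technical.

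EGF family ligands are made as membrane-anchored precursors and are released by metalloproteases of the ADAM family. Those encoded by the members bind EGFR (ErbB1), and some also ErbB4. The related neuregulins bind ErbB4, and some also ErbB3, whose kinase is weak. Bound receptors pair with each other or with ErbB2, which has no known ligand, and signal through the Ras-ERK and PI3K-AKT cascades. Activated receptors are restrained by feedback inhibitors such as ERRFI1 (MIG6), which binds the kinase domain, and LRIG1, a membrane protein that promotes receptor degradation. In bone, EGF receptor signaling is known to favor expansion of osteoblast progenitors over their maturation, and amphiregulin is known as a target of PTH in osteoblasts. The PTH receptor raises cyclic AMP, and the transcription factor CREB, a target of the cyclic AMP pathway, binds the cAMP response element (CRE).

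Upstream sequence was available from RefSeq (build GRCm38.p6) for 7 of the 10 members, namely Areg, Btc, Tgfa, Egfr, Erbb2, Errfi1 and Lrig1. Each window spans 250 bases before and 50 bases after a transcription start, and Errfi1 has windows at a pair of starts. The palindromic CRE, TGACGTCA, was found in the windows of Areg and Errfi1, the ligand and the inhibitor with the largest increases below. The 250 bases upstream of these starts are shown because they hold that match, which is in capitals. The Areg sequence is from chr5:91139349-91139598 and the Errfi1 sequence from chr4:150854820-150855069, both on the plus strand.
Areg: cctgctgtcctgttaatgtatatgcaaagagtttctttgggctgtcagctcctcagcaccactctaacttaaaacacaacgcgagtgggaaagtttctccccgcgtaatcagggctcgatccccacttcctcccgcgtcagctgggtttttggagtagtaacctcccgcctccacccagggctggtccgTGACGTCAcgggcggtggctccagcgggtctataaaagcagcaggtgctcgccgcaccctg
Errfi1: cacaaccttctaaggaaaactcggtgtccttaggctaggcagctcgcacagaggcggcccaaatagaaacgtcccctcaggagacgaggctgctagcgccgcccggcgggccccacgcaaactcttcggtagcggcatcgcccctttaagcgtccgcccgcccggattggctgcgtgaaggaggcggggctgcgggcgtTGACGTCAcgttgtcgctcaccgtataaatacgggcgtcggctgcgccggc
The match lay 61 to 54 bases before the start in Areg and 51 to 44 bases before it in Errfi1. In each case only the window with the match is shown, and the other Errfi1 window held none. A CRE was present in 588 of all 32851 promoter windows (1.79%). No window of Btc, Tgfa, Egfr, Erbb2 or Lrig1 held it, while the shorter motif TGACG, which is also contained in the CRE, occurred in Btc and Erbb2 and in 20.8% of all windows. The AP-1 motif TGANTCA was found in none of the members' windows and in 7.81% of all windows. All motifs were searched on both strands. Among tested genes with a window, 38.8% of the 387 with a CRE and 22.9% of the 10909 without were called higher with PTH. Called lower were 75 of the 387 and 2723 of the 10909. A call here is an adjusted p under 0.05, as set out below. These differences are given as a description and were not tested. A match in these letters does not show binding by any factor.

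Total counts lay between 33605610 and 56090654 per sample, with PTH replicate 1 the deepest library. Levels are given as CPM, the read counts of a gene scaled to a common library size, on sizes normalized by edgeR, and a gene was called at a Benjamini-Hochberg adjusted p under 0.05 over all 16736 tested genes. PTH raised 3907 genes (23.3% of those tested) and lowered 3762 (22.5%). In 43.0% of the tested genes the 4 PTH samples did not overlap the 4 vehicle samples. Scaling by library totals alone moved the median of all genes by -0.126 on the log2 scale, so that 35.0% rather than 50.9% of the calls were increases. The PTH target Tnfsf11, which encodes RANKL, was at 0.987 to 1.79 CPM in the vehicle samples and at 115 to 157 CPM in the PTH samples. The summed level of 10 osteoblast markers was between 92777 and 105104 CPM with vehicle and between 86744 and 125282 CPM with PTH, and 3 of the 10 (Runx2, Sp7 and Pth1r) were called lower. Of 8 epithelial markers, Krt14 and Esrp1 were at 0 in every sample, Krt18 was called higher (0.147 CPM with vehicle and 0.962 with PTH on average), and the list summed to at most 2.28 CPM in any sample. Of 10 macrophage markers, 2 (Cd14 and Lyz2) were called higher with PTH, and the log2 fold changes of all 10 lay between 0.19 and 0.63. Their summed level was between 1052 and 1710 CPM with vehicle and between 1642 and 2106 CPM with PTH. The 5 chondrocyte markers summed to between 316 and 331 CPM with vehicle and between 369 and 485 CPM with PTH, with Col2a1 and Acan called higher. Neither the 6 Schwann cell markers, with no call, nor the 7 adipocyte markers, with Pparg called lower, summed to more than 49.5 CPM in any sample. The 6 endothelial markers summed to at most 7.51 CPM, with Kdr called higher and Tek lower, and the 5 lymphocyte markers to at most 0.181 CPM.

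Of the 10 members, 5 were called higher with PTH (Areg, Hbegf, Tgfa, Errfi1 and Lrig1) and 2 were called lower (Egfr and Erbb2). The other 3 passed in neither direction (Ereg, Btc and Erbb3). Of all tested genes, 23.3% were called higher and 22.5% lower. The 7 called genes were also those in which the treatments did not overlap, beside 43.0% of all tested genes without overlap. The median log2 fold change was 0.83 over all 10 members, against -0.00 over all tested genes. All 3 calls among the ligands and both calls among the inhibitors were increases, and both calls among the receptors were decreases.

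**Figure D1:**
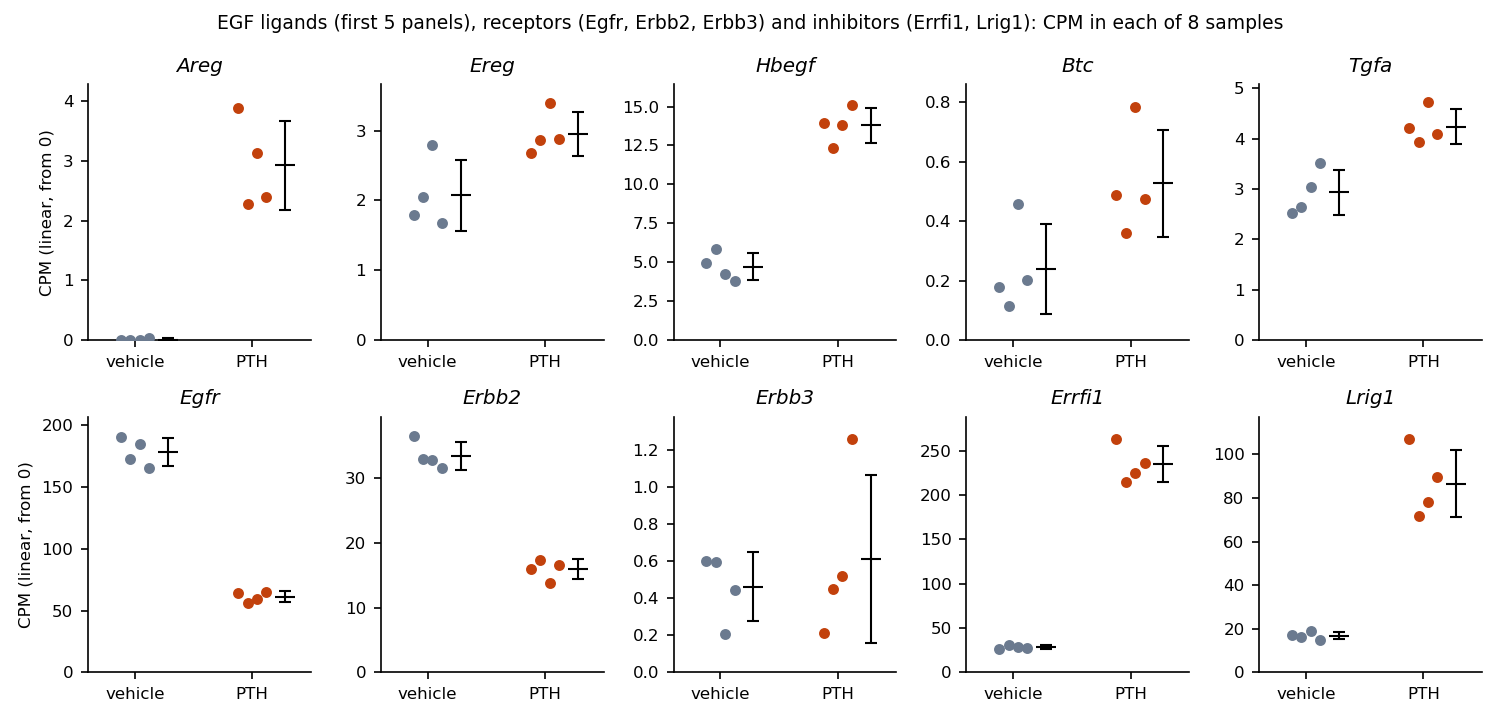
Level of each of the 10 members in every sample (CPM, each panel with its own linear axis from 0), with a point for each of the 4 vehicle and 4 PTH samples and a dash with error bars beside them for the mean and SD. Areg is at 0 in 3 vehicle samples and at 2.29 CPM or more in every PTH sample, while Egfr falls from 166 or more to 65.4 or less.

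Areg, the gene of amphiregulin, was all but undetected without PTH and was present in every PTH sample. The gene lies at chr5:91139599-91148432 (GRCm38, plus strand). The 4 vehicle samples held 0, 0, 0 and 2 Areg counts, and the PTH samples held 199, 76, 120 and 101. On the CPM scale, the vehicle values were 0, 0, 0 and 0.0403 and the PTH values 3.88, 2.29, 3.13 and 2.40. PTH replicate 1 was the highest, and even the lowest PTH sample was far above the only vehicle sample with any count. Summed over samples and scaled for library size, 496 counts against 2 gave a ratio of 280, with an exact 95% interval of 77.0 to 2316 that covers counting error only. With all counts halved, 248 against 1, the interval was 49.7 to 11089. The fitted log2 fold change of 7.76 depends on the prior count added to near-zero values and is no measure of size, but the quasi-likelihood test of edgeR gave an adjusted p of 4.20e-07. The ratio and the fitted value rest on vehicle replicate 4, without which the vehicle count is 0 and the fitted log2 fold change 9.98 (adjusted p = 3.98e-06). In these bulk samples a change in the number of expressing cells and a change in RNA per cell cannot be told apart.

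Hbegf, which encodes heparin-binding EGF-like growth factor, a ligand of both EGFR and ErbB4, rose 2.92-fold. It lies at chr18:36504927-36515805 (minus strand). The vehicle samples stood at 4.93, 5.85, 4.28 and 3.83 CPM and the PTH samples at 13.9, 12.4, 13.8 and 15.1 CPM. The lowest PTH sample exceeded the highest vehicle sample by more than the SD of either group (4.72 ± 0.880 with vehicle and 13.8 ± 1.11 with PTH, SD, n = 4 each). The log2 fold change was 1.55 with an SE of 0.137, and the adjusted p by edgeR was 2.10e-06. Macrophages are a known source of this ligand. The part of the macrophage markers, with their shift given above, in the Hbegf and Areg values was not tested.

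Tgfa, the gene of transforming growth factor alpha (chr6:86195223-86275719, plus strand), showed a smaller increase. Its vehicle values were 2.52, 2.64, 3.05 and 3.53 CPM and its PTH values 4.21, 3.94, 4.72 and 4.09 CPM. The ranges did not overlap, although vehicle replicate 4 came close to PTH replicate 2. The fold was 1.45, with a log2 fold change of 0.53 (95% interval 0.17 to 0.89) and an adjusted p of 0.0196 by edgeR. The call was lost with library totals as the only scaling (adjusted p = 0.0663) and without PTH replicate 3 (0.0611), vehicle replicate 1 (0.0576) or vehicle replicate 2 (0.0598).

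Ereg and Btc, which encode epiregulin and betacellulin, had higher means with PTH but were not called. Ereg (chr5:91074622-91093646, plus strand) was at 1.78, 2.04, 2.80 and 1.67 CPM with vehicle and at 2.67, 2.86, 3.39 and 2.88 CPM with PTH. Vehicle replicate 3 lay within the PTH range, and the other vehicle samples lay below it. The log2 fold change was 0.51 (95% interval 0.05 to 0.97), with an adjusted p of 0.0698 by edgeR. Btc (chr5:91357261-91402994, minus strand) was at 0.178, 0.115, 0.459 and 0.202 CPM with vehicle and at 0.488, 0.361, 0.783 and 0.475 CPM with PTH. These values rest on 5 to 22 counts per vehicle sample and 12 to 30 per PTH sample, and vehicle replicate 3 was again the sample within the PTH range. The log2 fold change of Btc was 1.13 (95% interval 0.06 to 2.20), with an adjusted p of 0.0799 by edgeR. Without vehicle replicate 3, both genes passed, at a log2 fold change of 0.68 (adjusted p = 0.0227) for Ereg and 1.65 (adjusted p = 0.0233) for Btc. That fit was the only 1 of 18 to call Ereg and the only 1 of 16 to call Btc. In the other edgeR fits that left out 1 sample, the adjusted p reached 0.169 for Ereg and 0.227 for Btc.

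**Figure D2:**
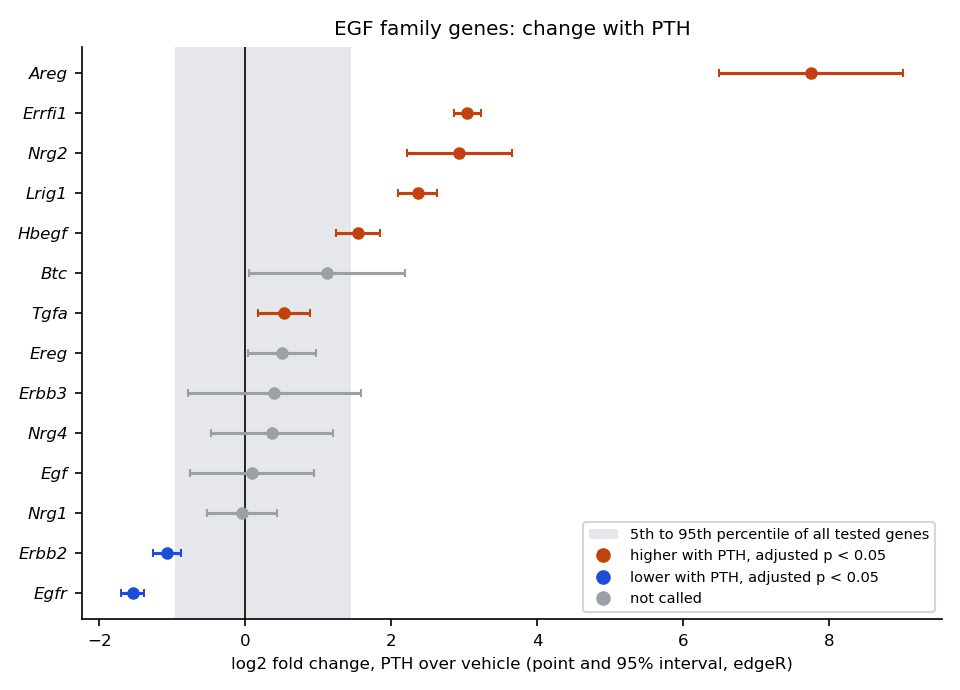
Log2 fold change of PTH over vehicle for the members and the other tested ErbB ligand genes, with points for the estimates, lines for 95% confidence intervals from the edgeR fit and a grey band for the 5th to 95th percentile of all tested genes (-0.96 to 1.44). Intervals of Egfr and Erbb2 lie wholly below 0, that of Erbb3 spans 0 (-0.78 to 1.58), and the Areg estimate of 7.76 depends on the prior count.

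Egfr, which encodes the receptor that all 5 of these ligands bind, fell to about the same degree as Hbegf rose. The gene lies at chr11:16752203-16918158 (plus strand). The vehicle samples were at 191, 172, 185 and 166 CPM and the PTH samples at 64.5, 56.6, 59.3 and 65.4 CPM. The samples within a treatment were close to each other (179 ± 11.3 and 61.5 ± 4.20 CPM, SD, n = 4 each), and the gap between the treatments was many times that spread. Egfr was 2.91-fold lower with PTH, at a log2 fold change of -1.54 (SE 0.0726) and an adjusted p of 7.64e-09 by edgeR. Of all tested genes, 221 had a lower log2 fold change than Egfr.

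Erbb2, the gene of the co-receptor without a ligand of its own, also fell. The gene lies at chr11:98412470-98437716 (plus strand), on the same chromosome as Egfr. Its vehicle values were 36.5, 32.9, 32.9 and 31.5 CPM and its PTH values 16.0, 17.4, 13.8 and 16.7 CPM. The groups stood apart, with the highest PTH sample far below the lowest vehicle sample. Erbb2 was 2.10-fold lower, at a log2 fold change of -1.07 (SE 0.0879) and an adjusted p of 1.08e-06 by edgeR. Its exons share 9 bases with those of Mien1 on the opposite strand, which was called higher (log2 fold change 0.75), and the strand setting of the counting is not given in the sources used here.

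Erbb3 (chr10:128567523-128589652, minus strand), the partner receptor with a weak kinase, was near the limit of detection. Its vehicle values were 0.602, 0.597, 0.209 and 0.443 CPM and its PTH values 0.215, 0.451, 0.522 and 1.26 CPM. All but the lowest vehicle sample lay within the PTH range, and PTH replicate 4 held 53 counts where no other sample held more than 27. The log2 fold change was 0.40 with a 95% interval of -0.78 to 1.58 and an adjusted p of 0.576 by edgeR, and it turned to -0.24 (adjusted p = 0.750) without PTH replicate 4. The interval leaves room for a change in either direction.

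Errfi1 and Lrig1, the genes of the receptor inhibitors, both rose more than any receptor fell. Errfi1 (chr4:150853919-150868892, plus strand) was at 26.0, 30.9, 29.0 and 28.0 CPM with vehicle and at 263, 215, 225 and 236 CPM with PTH. The increase was 8.25-fold (28.5 ± 2.05 to 235 ± 20.5 CPM, SD, n = 4 each), with a log2 fold change of 3.04 (SE 0.0844) and an adjusted p of 6.20e-11 by edgeR. Only 236 tested genes had a higher log2 fold change. Lrig1 (chr6:94604529-94700158, minus strand) was at 16.9, 16.3, 19.0 and 15.1 CPM with vehicle and at 107, 71.7, 78.2 and 89.4 CPM with PTH. PTH replicate 1 was the highest sample for both inhibitors, as it was for Areg, and no PTH sample came near a vehicle sample. Lrig1 rose 5.14-fold, with a log2 fold change of 2.36 (SE 0.123) and an adjusted p of 1.89e-08 by edgeR. Without PTH replicate 1, the log2 fold changes were 2.98 for Errfi1 and 2.24 for Lrig1. Lrig1 shares 139 exon bases with Slc25a26 on the opposite strand, which was not called (log2 fold change -0.31). Ereg and Tgfa also share exon bases with genes on the opposite strand, 141 with Gm19610 and 118 with Gm43917. Gm43917 held at most 4 counts in any sample, and Gm19610 has no value here.

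To compare genes with each other, CPM values were divided by transcript length in kilobases. Among the ligands in the vehicle samples, Hbegf (1.99 ± 0.370 CPM per kilobase, SD, n = 4) and Nrg1, which encodes the ErbB3 and ErbB4 ligand neuregulin-1 (1.64 ± 0.463), stood highest and overlapped each other. Tgfa (0.648 ± 0.101) and Ereg (0.503 ± 0.122) followed, also with overlapping samples. Nrg4, Egf, Nrg2, Btc and Epgn were lower, from 0.232 down to 0.0453, and the mean for Areg was 0.00830. With PTH, Hbegf was still the highest at 5.81 ± 0.467 CPM per kilobase, and Areg was next at 2.41 ± 0.609. The 4 Areg values lay below all Hbegf values and above all Nrg1 values (1.58 ± 0.216). Tgfa (0.937 ± 0.0751), Nrg2 (0.732 ± 0.122) and Ereg (0.715 ± 0.0749) came after Nrg1. The Tgfa samples all lay below those of Nrg1, while the Nrg2 samples overlapped those of Tgfa and of Ereg. The place of Areg depends on transcript length, which is 1215 bases for Areg, 2452 for Nrg1, 4527 for Tgfa and 4128 for Ereg. In CPM, the PTH means were 2.93 for Areg, 3.88 for Nrg1, 4.24 for Tgfa and 2.95 for Ereg. Levels per coding length were not compared.

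Expressed as a share of the summed level per length of the 11 ligand genes measured, Areg went from between 0 and 0.600% in the vehicle samples to between 14.9% and 23.6% in the PTH samples. Hbegf held 37.0% ± 7.42 with vehicle and 44.7% ± 2.36 with PTH (SD, n = 4 each). The share of Nrg1 was 29.7% ± 5.75 with vehicle and 12.1% ± 0.953 with PTH, although its own level was not called different. All of these shares depend on the transcript lengths used. The 11 ligands together rose from 5.43 ± 0.715 to 13.0 ± 1.03 CPM per kilobase. The 4 receptor genes together went the other way, from 24.3 ± 1.48 to 9.31 ± 0.567 CPM per kilobase. Neither sum had overlapping samples between the treatments. Per length, every vehicle sample held more receptor than ligand RNA, whereas every PTH sample held more ligand than receptor RNA. That crossing depends on the transcript lengths, and that of Egfr is 10208 bases. In CPM, the 5 ligand members summed to between 21.8 and 25.8 with PTH, and the 3 receptor members to between 73.6 and 83.3. The 7 other ligand and receptor genes summed to at most 8.70 CPM in any PTH sample. Receptor RNA thus stayed the higher in CPM.

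**Figure D3:**
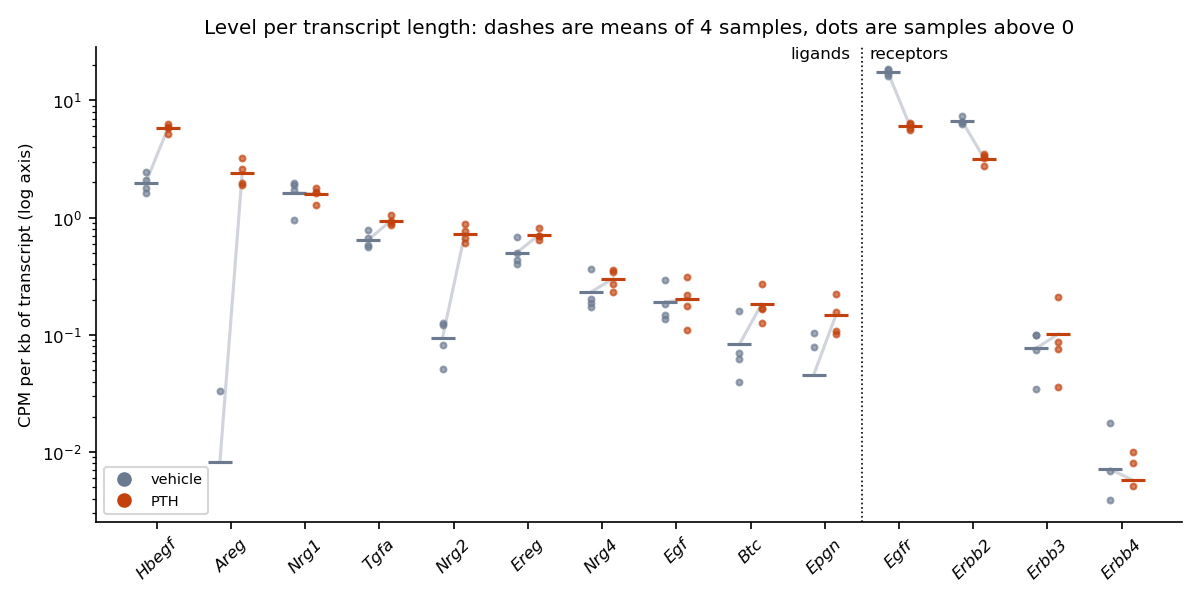
Level per transcript length (CPM per kilobase) of the ligand genes except Nrg3, which was at 0, and of the receptor genes, on a log axis, with points for the vehicle and PTH samples above 0 and dashes joined by lines for the means. With PTH, Areg stands next to Hbegf among the ligands at 2.41 CPM per kilobase, while Egfr is at 6.02 after 17.5 with vehicle. The order of genes depends on the transcript lengths used.

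Egfr made up 72.1% ± 0.797 of the receptor RNA per length with vehicle and 64.7% ± 2.72 with PTH, and Erbb2 made up 27.5% and 34.2%. Erbb3 and Erbb4 together never exceeded a few percent. Egfr was at 17.5 ± 1.11 CPM per kilobase with vehicle and 6.02 ± 0.412 with PTH, and Erbb2 at 6.68 ± 0.425 and 3.18 ± 0.312. The inhibitor Errfi1 went from 9.36 ± 0.673, below Egfr in every vehicle sample, to 77.2 ± 6.75, above Egfr in every PTH sample. Lrig1 made the same crossing, from 3.40 ± 0.335 to 17.5 ± 3.13.

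Areg, Ereg, Epgn and Btc lie in a cluster of ligand genes on chromosome 5, between the metabolic gene Mthfd2l and Parm1. Distances are between annotated gene starts. Epgn, which encodes the ligand epigen, starts 112 kilobases before Areg and Ereg 65.0 kilobases before it, while Btc starts 263 kilobases after it on the opposite strand. Epgn was too low to test, with 0, 6, 0 and 9 counts in the vehicle samples and 14, 6, 15 and 8 in the PTH samples. The flanking gene Parm1, whose start is 378 kilobases beyond that of Areg, stood at 6.77 ± 0.928 CPM with vehicle and 17.8 ± 3.26 with PTH, an increase of 1.39 on the log2 scale (adjusted p = 8.02e-06 by edgeR). Mthfd2l, which starts 208 kilobases on the other side, was at 9.15 ± 0.435 and 11.8 ± 1.56 CPM, an increase of 0.37 on the log2 scale (adjusted p = 0.0171), a call that was lost with library totals alone. Of the 6 genes in this stretch, 5 were tested. Of these, 3 were called higher and none lower (23.3% and 22.5% of all tested genes). Per transcript length, Areg went from near 0 to a level above that of its neighbor Ereg. That order depends on the transcript lengths, 1215 bases for Areg and 4128 for Ereg, as the PTH means were 2.93 and 2.95 CPM.

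**Figure D4:**
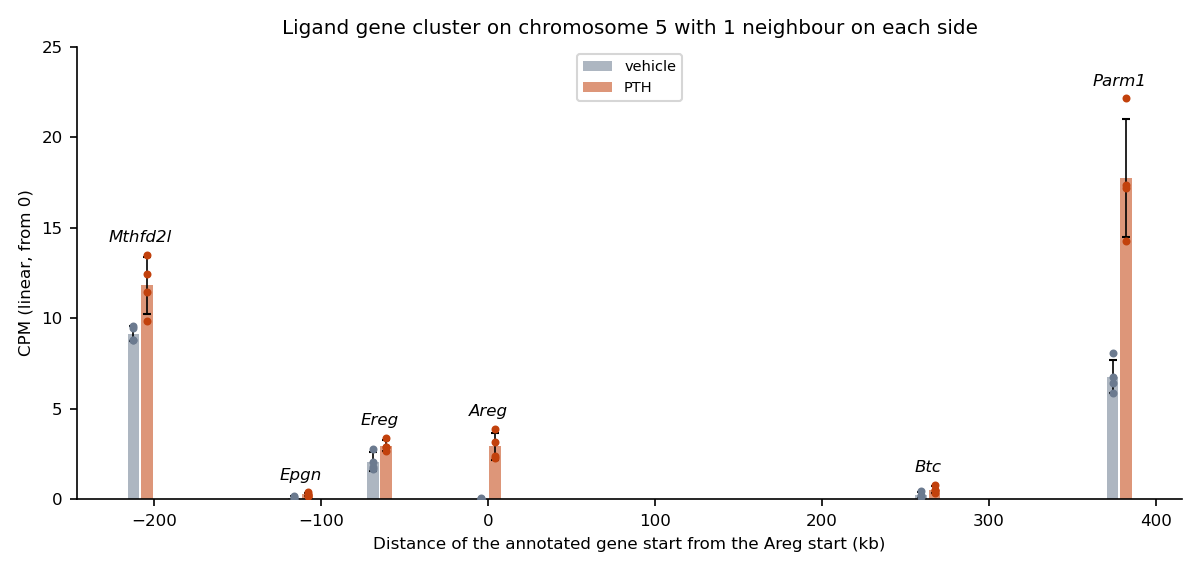
Level (CPM, linear axis from 0) of the genes in the ligand cluster on chromosome 5 by distance of their annotated start from that of Areg (kilobases), with bars and error lines for mean and SD and points for the 4 samples of each treatment. Parm1 rises from 6.77 to 17.8 CPM at the far end, while Ereg and Btc overlap between the treatments.

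Among the other 7 ErbB ligand and receptor genes, 4 could be tested and 1 was called. Nrg2, which encodes neuregulin-2, a ligand of ErbB3 and ErbB4, was at 0.156, 0.367, 0.250 and 0.383 CPM with vehicle and at 1.85, 2.05, 2.71 and 2.33 CPM with PTH. The treatments did not overlap, and the increase was 7.73-fold (log2 fold change 2.93, SE 0.330, adjusted p = 1.80e-05 by edgeR) on 7 to 19 counts per vehicle sample. Egf, the gene of the founding ligand, was at 0.906 ± 0.343 CPM with vehicle and 0.971 ± 0.398 with PTH (log2 fold change 0.09, 95% interval -0.76 to 0.94). Nrg1 was at 4.01 ± 1.14 and 3.88 ± 0.530 CPM (log2 fold change -0.05, 95% interval -0.53 to 0.44). The signs of the Egf and Nrg1 differences turned under some alternatives. Nrg4, another neuregulin, was at 0.447 ± 0.174 and 0.582 ± 0.116 CPM (log2 fold change 0.37, 95% interval -0.47 to 1.21). Erbb4 was at no more than 10 counts in any sample and Nrg3 was at 0 in all 8, and neither was tested.

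In the wider pathway, 69 genes in 5 lists were examined, of which 65 could be tested, 27 (41.5%) were called higher and 14 (21.5%) lower, beside 23.3% and 22.5% of all tested genes. The median log2 fold change over the 65 was 0.10. These are counts over lists chosen with earlier results of these data known, and no list was tested as a set.

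Of the 11 genes for shedding of ligands, 4 were called higher and 2 lower, beside 23.3% and 22.5% of all tested genes. The median log2 fold change of the list was -0.05. With library totals alone, 1 was higher and 5 were lower, and 2 were higher without vehicle replicate 4 and 1 was lower without PTH replicate 3. Adam17, whose protease releases Areg, Hbegf and Tgfa among other ligands, was at 98.6 ± 4.55 CPM with vehicle and 79.8 ± 10.3 with PTH (adjusted p = 0.0133 by edgeR at a log2 fold change of -0.30), with overlapping samples, and missed the threshold without PTH replicate 3 (adjusted p = 0.0520). Rhbdf1, which encodes iRhom1, a cofactor of that protease, fell by 0.53 on the log2 scale to 52.1 ± 3.74 CPM, without overlap between the treatments. The protease gene Adam9 rose from 132 ± 1.30 to 189 ± 17.7 CPM (log2 fold change 0.52) and Adam8 from 39.7 ± 7.65 to 53.5 ± 6.03 CPM (log2 fold change 0.43), the latter with overlapping samples and lost with library totals alone (adjusted p = 0.0849).

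Of the 13 genes for receptor down-regulation, 12 were tested, 5 were called higher and 3 lower, beside 23.3% and 22.5% of all tested genes. The median log2 fold change of the list was 0.21. Only 1 was lower under DESeq2 and its size factors, a minimum count of 50, halved counts, the replicate block, and without PTH replicate 2 or 3 or vehicle replicate 2 or 3. Ptpn1, which encodes a phosphatase that acts on EGFR, was at 41.0 ± 5.33 CPM with vehicle and 94.8 ± 14.4 with PTH, an increase of 1.21 on the log2 scale (adjusted p = 4.79e-06 by edgeR). The suppressor of cytokine signaling genes Socs4 and Socs5, whose products bind EGFR, moved in opposite directions, with Socs4 at 40.0 ± 1.22 and 61.0 ± 8.60 CPM and Socs5 at 62.2 ± 4.20 and 32.1 ± 4.90 CPM. Their log2 fold changes were 0.61 and -0.95. Sh3kbp1, an adaptor of the ubiquitin ligase Cbl, passed at an adjusted p of 0.0469 (log2 fold change -0.21) with overlapping samples, and the call was lost under 12 of 17 alternatives. The ligase gene Cblb and the Lrig1 relative Lrig2 were among the genes called higher, at log2 fold changes of 0.56 and 0.36.

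**Figure D5:**
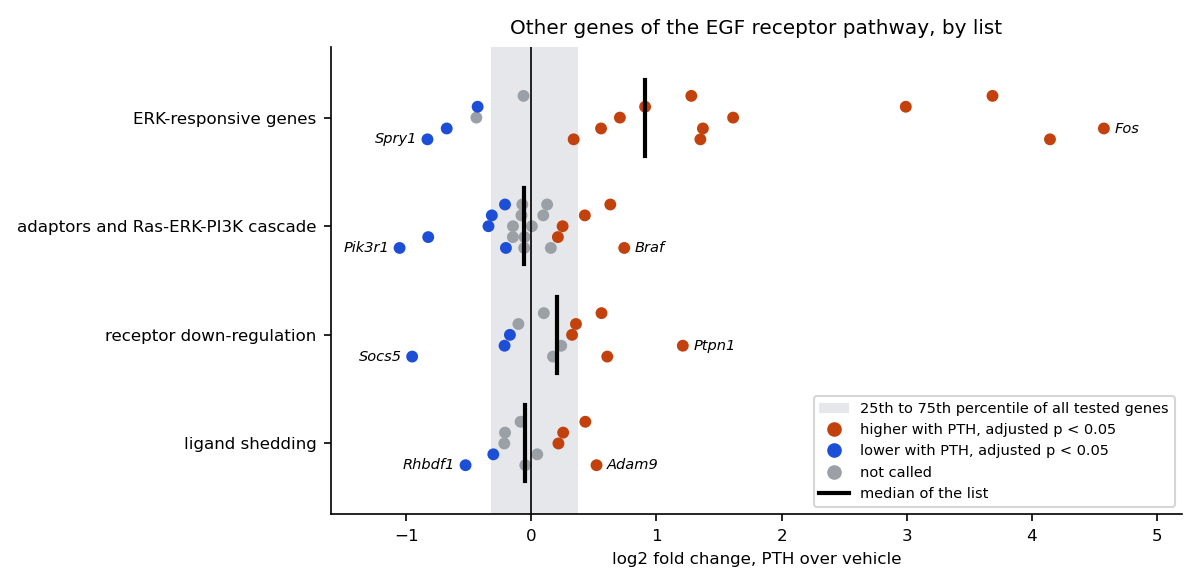
Log2 fold change of PTH over vehicle for the tested genes of 4 pathway lists, with points colored by call, black lines for list medians and a grey band for the 25th to 75th percentile of all tested genes (-0.32 to 0.38). The median of the ERK-responsive genes is 0.91, and those of the other 3 lists lie inside the band.

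The 21 adaptor and cascade genes were called higher in 5 cases and lower in 6, beside 23.3% and 22.5% of all tested genes. The median log2 fold change of the list was -0.06. With library totals alone, 3 were higher and 11 lower, and 3 were higher without PTH replicate 1, PTH replicate 4 or vehicle replicate 2 or with no filter on low counts. The kinase gene Braf rose from 41.4 ± 3.73 to 69.4 ± 4.44 CPM (log2 fold change 0.74), and Map2k1, which encodes the kinase MEK1, rose from 66.3 ± 4.77 to 103 ± 14.4 CPM (log2 fold change 0.63). Pik3r1, the regulatory subunit of PI3K, fell from 151 ± 8.75 to 72.9 ± 2.35 CPM (log2 fold change -1.05), and the docking protein gene Gab1 fell from 54.6 ± 5.36 to 30.8 ± 2.38 CPM (log2 fold change -0.82). The adjusted p of each of these 4 by edgeR was 0.000206 or less, and none overlapped between the treatments.

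Of 17 genes known to respond to ERK signaling, 12 were called higher and 3 lower, beside 23.3% and 22.5% of all tested genes. The median log2 fold change of the list was 0.91. Fos, an immediate early gene that also responds to cyclic AMP, went from 8.89 ± 0.898 to 212 ± 20.6 CPM (log2 fold change 4.58). Phlda1 went from 7.27 ± 0.432 to 129 ± 9.84 CPM (log2 fold change 4.14). The genes Ier3 (log2 fold change 3.69), Fosl1 (2.99), Myc (1.37) and Egr1 (0.34), the ERK phosphatase genes Dusp4 (0.71), Dusp5 (1.35) and Dusp6 (1.28), and the ERK pathway inhibitor genes Spry2 (1.61), Spry4 (0.56) and Spred2 (0.91) were called higher as well. The related inhibitor gene Spry1 fell from 16.1 ± 0.640 to 9.04 ± 1.02 CPM (log2 fold change -0.83), and Etv5, a transcription factor gene, fell from 36.3 ± 2.26 to 22.7 ± 1.51 CPM (log2 fold change -0.68). Spred1, an inhibitor gene related to Spred2, was the other gene called lower (log2 fold change -0.43). Ccnd1 (log2 fold change -0.06) and Etv4 (-0.44) were not called. Neither the source of the signal to these genes nor any part of the EGF family in it was measured, and phosphorylation of receptors or ERK was not part of these data.

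Across the 8 samples, the genes most like Areg in log2(CPM + 0.5), among 14056 with a mean of at least 1 CPM, were Gpt2, Chst8 and Isca1 (Pearson r of 0.998, 0.997 and 0.997). Those most like Egfr were Tcf19, Adamts5 and Gprin3 (0.999, 0.998 and 0.998). The 8 samples form a pair of treatment groups, and 1120 genes for Areg and 1014 for Egfr had an r above 0.95, so these values describe mainly the shared difference between treatments.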

How the data were processed

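RNA sequencing was analysed from 4 vehicle and 4 PTH samples, grouped by their titles. The authors made poly(A)-enriched libraries, sequenced read pairs of 150 bases and aligned them to GRCm38. HISAT2 was their aligner, SAMtools sorted the alignments and StringTie2 assembled the transcripts. They deposited raw counts per gene, which the companion script of StringTie2 derives from transcript coverage. That script assumes reads of 75 bases unless told otherwise. The setting used, the annotation version and the strand setting are not given in the sources used here, so all counts were also halved as an alternative, to see what a wrong read length would change.

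Genes were tested with edgeR 4.0.16 under R 4.3.3. Libraries were scaled by TMM, genes passed filterByExpr at 10 counts or more with at least 15 in total, and the quasi-likelihood F-test was two-sided. The p-values were adjusted by Benjamini-Hochberg over all 16736 tested genes. SEs were taken from the log2 fold change and the F statistic, and intervals from the matching t distribution. DESeq2 1.42.0, other scalings, other filters, a minimum log2 fold change of 1, counts summed by symbol, a replicate block and leaving out each sample were the alternatives. Fits were tested on simulated data. Where a symbol had several entries, the entry with the highest mean count was taken. Positions, exon overlaps and transcript lengths (the transcript with the longest coding sequence) are from GENCODE M21, and promoter windows from RefSeq. Ratios of pooled counts carry exact 95% intervals for counting error. Counts per sample were lowest for Areg with vehicle, Btc and Erbb3, and their part in the calls was not tested.

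The members and gene lists were chosen with earlier results of these data known. Named were all members, all other ErbB ligand and receptor genes, the called genes with the largest increases and decreases in each of the 4 remaining lists (at most 2 each way), Tnfsf11, the genes of the chromosome 5 segment, the 3 genes most similar to Areg and to Egfr, and cell type markers. Mien1, Slc25a26, Gm19610, Gm43917, Cblb, Lrig2, Ier3, Fosl1, Myc, Egr1, Dusp4, Dusp5, Dusp6, Spry2, Spry4, Spred1, Spred2, Ccnd1 and Etv4 were named after their values were seen. A gene of the pathway lists is not reported here and was left out of their counts. Protein sequences were not analysed here, so the planned comparison of EGF-like modules was not run. Python 3.11.15, pandas 2.3.3, NumPy 2.4.6, SciPy 1.17.1 and matplotlib 3.10.9 were used for descriptions and plots.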

Additional observations from a re-analysis of the deposited data

Results flagged for a closer look

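Of 74 groups of 4 samples examined, 4 held a sample far from the other 3. Chance alone gives about 1 in 20 for independent values from a normal distribution, a rate that does not apply to near-zero counts. For Areg with vehicle, replicate 4 was at 0.0403 CPM and the others at 0, where any count in the remaining sample sets this flag. For Nrg4 with vehicle, the sample apart was at 0.706 CPM and the others between 0.334 and 0.390. Phlda1 in a PTH sample was at 143 CPM, and the others lay between 122 and 125. Tnfsf11 in a PTH sample was at 157 CPM, and the others lay between 115 and 120.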

How the results depend on the processing

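Over 167 values of the 10 members under alternatives, 159 kept their direction and their side of the threshold. The other 8 concern Tgfa, Ereg, Btc and Erbb3, and all but the loss of Tgfa with a minimum log2 fold change of 1 are given above. Areg, Hbegf, Egfr, Erbb2, Errfi1 and Lrig1 kept their calls under each alternative run. With a minimum log2 fold change of 1, 1232 genes were called higher and 650 lower, and 10 and 1 of the other pathway genes. With library totals alone, 23 pathway genes were called lower. Leaving out a sample gave between 3412 and 4119 genes higher and between 3259 and 3955 lower, 4 to 7 members higher and 2 lower, and 24 to 27 pathway genes higher and 10 to 15 lower. DESeq2 called 4109 genes higher and 3784 lower. Signs turned in some fits without 1 sample, for Erbb3 without PTH replicate 4 (range -0.24 to 0.70), for Egf without PTH replicate 2 or vehicle replicate 3 or 4 (-0.17 to 0.37) and for Nrg1 without PTH replicate 2 or vehicle replicate 2 or 4 (-0.24 to 0.052), and for Egf with library totals (-0.025). The cause was not tested, and none of these 3 genes passed in any fit. Same-numbered samples did not deviate together (correlations of -0.0376, -0.0327, -0.0409 and 0.0274), so the numbers were not taken as pairs, and a replicate block gave 3571 genes higher and 3432 lower, with 5 members higher and 2 lower and 25 and 11 pathway genes. Epgn, Erbb4 and Nrg3 did not pass the filter on low counts.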
